A study of Mus musculus with 18 samples.

Results

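The choroid, the vascular layer under the retina, was compared with the brain in whole-tissue RNA from the mouse. The members of the comparison were the 3 choroid input libraries and the 3 brain input libraries, chosen by their labels, which are 6 of the 18 libraries of the series. Genes entered where both tissue tables listed them, which held for 11121 of 13516 genes in at least 1 of the 2 tables. All 6 libraries came from Tie2-cre+; NuTRAP+ mice. In these animals a Cre driven by the Tie2 promoter, which works in endothelium and in blood-forming lineages, switches on a GFP tag on ribosomes. The input used here was a volume of 150 µl of lysate supernatant, taken after a spin at 12000 g and before the tagged ribosomes were pulled down, so it was not selected for endothelium. A choroid sample was RPE-choroid tissue scraped from the 2 eyes of a pair and pooled, and a brain sample was part of a dissected brain, minced and ground in a glass homogenizer. Replicates were numbered 421, 953 and 960 in each tissue. The headers of all 6 count columns also carry the letters WT, whose meaning was not established here. No source used here states the sex or age of the mice, and mice without the transgenes were not analysed here. The labels call the samples biological replicates, and p values measure the spread between these samples.

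The retinal pigment epithelium (RPE) is a single layer of pigmented cells between photoreceptors and choroid. It regenerates the chromophore of the visual pigments in the visual cycle, engulfs shed photoreceptor tips, passes glucose and lactate between blood and retina and lays its basement membrane on the elastic and collagenous Bruch's membrane. Under it lies a dense bed of fenestrated capillaries in a stroma of melanocytes, fibroblasts, macrophages and mast cells. The brain holds neurons, astrocytes, oligodendrocytes and microglia, with capillaries that form the blood-brain barrier.

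Total counts over listed genes ran from 8807306 to 14484068 in the choroid inputs and from 9596740 to 32064355 in the brain inputs. The correlation of log2 CPM, taken over genes and so not over independent replicates, was 0.936 to 0.970 between choroid inputs and 0.995 between brain inputs 421 and 953. Brain input 960 stood apart from the other brain inputs, with r of 0.903 and 0.904. With genes cut into 4 equal classes by exonic length, the shortest class lay a median of 0.54 above the other 2 brain inputs on the log2 scale in that library, and the longest class lay at -0.50. Over 10807 genes, the Spearman correlation of exonic length with a library's deviation from the other 2 of its tissue was -0.516 in brain input 960, -0.467 in choroid input 960, 0.381 in choroid input 421, 0.073 in choroid input 953, and 0.484 and 0.504 in brain inputs 421 and 953, given as a description. Choroid input 421 also stood apart in Mbp and Gfap and choroid input 960 in rod and lens genes, with values beside the results they touch. Below, CPM is the count per 1000000 counts, scaled with TMM over the genes in both tables, and 3 values in a row are those of inputs 421, 953 and 960 in that order. A fold change is the log2 of choroid over brain ± a standard error derived from the edgeR test. A gene was called higher or lower at an adjusted p under 0.05.

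Of the 11121 genes, 2691 (24.2%) were called higher and 2485 (22.3%) lower in choroid than in brain. A difference of 2-fold or more was seen for 2142 and 1702 of these, and one of 16-fold or more for 162 and 136. The median of all genes was -0.05. Scaling by library size alone, without TMM, moved it by 0.11 and gave 2927 higher and 2156 lower. Every choroid input lay above every brain input for 3310 genes (29.8%), and the reverse held for 3185 (28.6%). Without brain input 960 the counts were 3532 and 3359, and without both that library and choroid input 421 they were 3852 and 3914. A further 597 genes were listed in the choroid table only and 1798 in the brain table only. A gene is listed where all inputs or all pull-down libraries of the tissue reach 50 counts. All 3 inputs reached this for 11618 of 11718 genes in the choroid table and for 11318 of 12919 in the brain table. The others were listed through the pull-down libraries, so a gene listed in brain only can be low in brain input. Genes in 1 table only have no value in the other and no fold change. The tested members of a list are those listed in both tissues. Of 998 different list members, 645 were in both tables, 117 in choroid only, 146 in brain only and 90 in neither. Where a list below has 0 members called in a direction, that holds for 29 list directions in all. In these, edgeR gave 2 members at an unadjusted p under 0.05 and DESeq2 called 2. In bulk tissue, more cells of a type and more RNA per cell cannot be told apart. The plot of list members sets some of the lists side by side, with eye and stromal lists to the right and neuronal lists to the left.

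**Figure D1:**
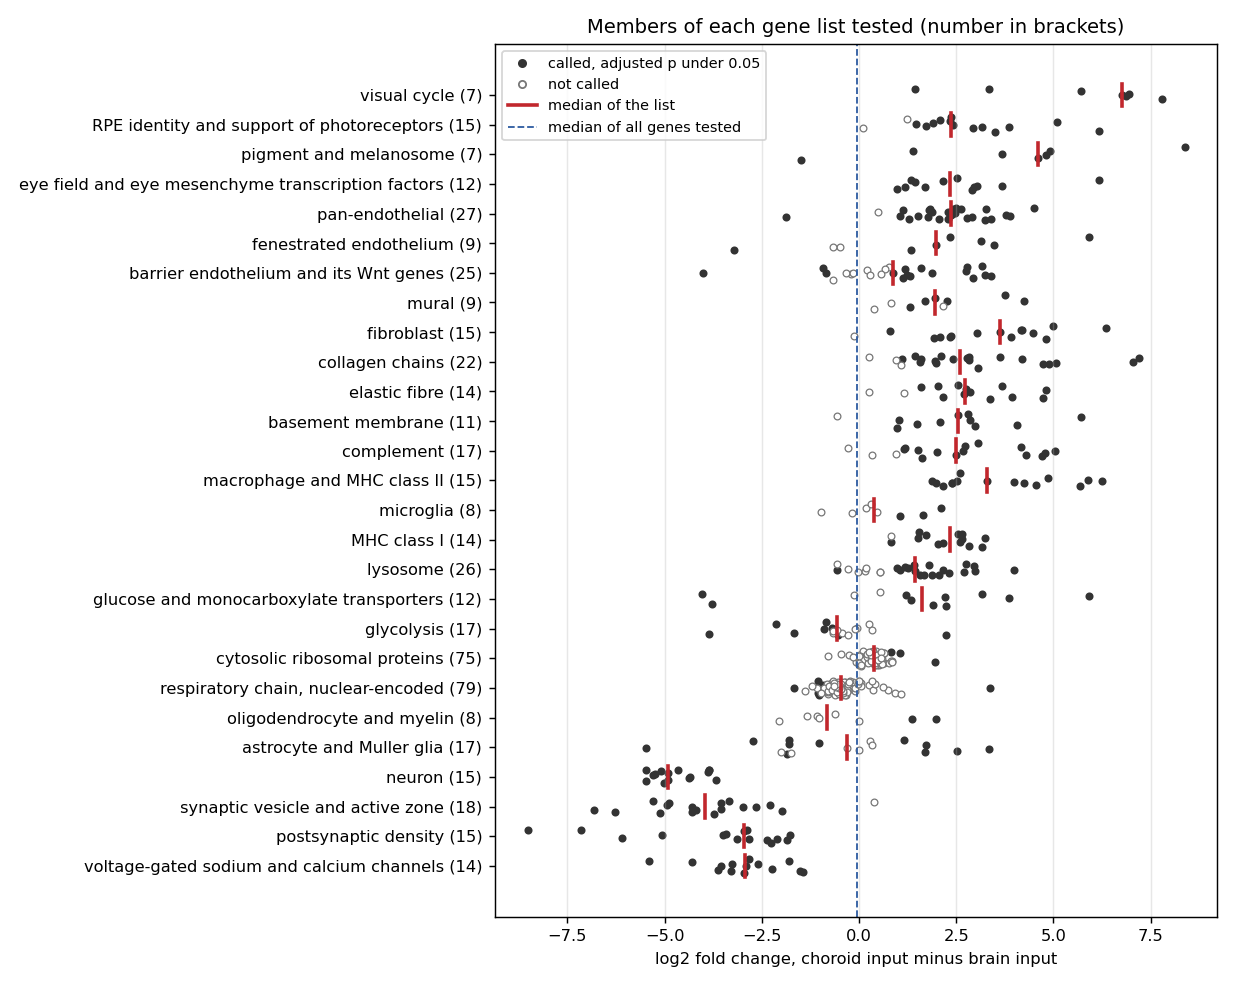
Each point is 1 gene listed in both tissues, placed by its log2 fold change (choroid input minus brain input), with 1 row for each list shown. Not all lists are drawn. Those left out include the immediate early (17 tested, median 0.18), clock (16, -0.08), tight junction (13, 0.66) and retinoic acid (12, 0.90) lists. Filled points were called at an adjusted p under 0.05, red bars are list medians and the dashed line is the median of all 11121 genes (-0.05). Visual cycle genes (median 6.76) sit farthest to the right and neuron genes (median -4.92) farthest to the left.

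Genes of the visual cycle were the most choroid-biased list. Rdh5, the 11-cis retinol dehydrogenase of the RPE (chromosome 10, 128913591 to 128919297, mm10), had 1080, 1703 and 2073 CPM in choroid and 6.49, 7.38 and 8.06 CPM in brain. The lowest choroid value was 134 times the highest brain value (log2 fold change 7.79 ± 0.36, adjusted p = 2.87e-05). Rlbp1, which encodes the retinaldehyde carrier CRALBP, had 1963, 3489 and 3354 CPM in choroid and 22.7, 23.2 and 29.6 CPM in brain, and the groups were again far apart (6.87 ± 0.35, adjusted p = 3.39e-05). Stra6, the membrane receptor that takes retinol from its plasma carrier, had 692, 837 and 934 CPM in choroid and 8.16, 8.47 and 2.93 CPM in brain (6.94 ± 0.48, adjusted p = 6.55e-05). All 3 of these genes serve the handling of retinoids in RPE cells. The retinol dehydrogenase Rdh10 was higher as well (6.76 ± 0.30). All 7 tested members were called higher, against 24.2% of all genes, with a median of 6.76 and a range from 1.44 to 7.79. The only member listed in brain alone was Rbp4, the plasma carrier of retinol (8.93, 9.60 and 18.4 CPM in the brain table).

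The enzymes at the centre of the cycle could not be set against brain. Rpe65, the retinoid isomerase (chromosome 3, 159599181 to 159625307), Lrat, the acyltransferase that makes its ester substrate, and Rgr, an opsin that acts in the RPE and Müller cells, were listed in the choroid table only. CPM over the genes of that table, a scale of its own, was 1550, 2421 and 1867 for Rpe65, 1242, 1900 and 1867 for Lrat and 5056, 7532 and 6372 for Rgr. Choroid input 421 was the lowest of the 3 for each of these genes and for Rdh5, Rlbp1, Rdh10 and Stra6. Per kilobase of exonic sequence, Rgr had 1321 and Rpe65 1006 CPM on average, ranks 11 and 16 of 11364 choroid genes with a length. Rlbp1 followed at rank 18 with 984 CPM per kilobase, and Lrat and Stra6 held ranks 103 and 326.

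RPE identity and support genes were also higher as a group (13 higher and 0 lower of 15, median 2.36). Otx2, a homeobox factor that sets RPE fate (chromosome 14, 48658184 to 48662872), had 302, 531 and 447 CPM in choroid and 6.09, 6.49 and 5.01 CPM in brain (6.17 ± 0.31, adjusted p = 3.05e-05). Timp3, the metalloproteinase inhibitor stored in Bruch's membrane, had 5390, 6008 and 4752 CPM in choroid and 175, 167 and 130 CPM in brain (5.10 ± 0.25, adjusted p = 2.87e-05). The lowest choroid value was 46.5 times the highest brain value for Otx2 and 27.2 times for Timp3. The epithelial cadherin gene Cdh1 (2.92 ± 0.21) and Enpp2, which makes lysophosphatidic acid (2.34 ± 0.19), followed with smaller differences. The phagocytosis bridge Mfge8 had overlapping groups (244, 191 and 246 CPM in choroid and 209.9, 188 and 233 CPM in brain) and was not called (0.11 ± 0.19, adjusted p = 0.66). Cst3, the secreted protease inhibitor cystatin C, had 2762, 3696 and 4189 CPM in choroid and 908, 942 and 2659 CPM in brain, and was not called (1.24 ± 0.46, adjusted p = 0.0613). Brain input 960 came close to the choroid values, and without that library Cst3 had 1.94, adjusted p = 0.000463. Listed in choroid only were the RPE lactate transporter Slc16a8 (705, 1089 and 1264 CPM in that table), the keratin Krt18 (395, 553 and 574) and the potassium channel Kcnj13 (233, 255 and 279.6).

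Pigment genes had the second highest median of the lists (6 higher and 1 lower of 7, median 4.61, with 10 further members listed in choroid only). Pigment is made by melanocytes of the choroid and by the RPE, through the enzymes tyrosinase (Tyr), Tyrp1 and Dct on a scaffold of Pmel. Tyr (chromosome 7, 87427405 to 87493411) had 276, 262 and 201 CPM over the choroid table, Tyrp1 had 1507, 857 and 785, Dct 4683, 3648 and 3861 and Pmel 1260, 722 and 829. For each of these 4 genes choroid input 421 was the highest, the opposite of the visual cycle genes. Gpnmb, a melanosomal glycoprotein (chromosome 6, 49036518 to 49058182), had the highest fold change of the genes named by rule, with 1601, 1127 and 1262 CPM in choroid and 4.93, 4.48 and 2.32 CPM in brain (8.37 ± 0.40, adjusted p = 2.87e-05). Mitf, the master transcription factor of pigment cells, had 205, 148 and 152 CPM in choroid and 13.3, 12.99 and 13.1 CPM in brain (3.68 ± 0.20, adjusted p = 3.79e-05). The melanosome transport genes Rab27a (4.92 ± 0.29) and Mlph (4.82 ± 0.35) were higher too, while the receptor tyrosine kinase Kit was the 1 member called lower (27.01, 30.8 and 25.1 CPM in choroid and 88.1, 71.7 and 72.7 CPM in brain; -1.49 ± 0.17, adjusted p = 0.0005). Kit serves melanocytes and mast cells and is also made by neurons.

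The promoters of the 3 pigment enzymes and of Rpe65 are shown because these genes were listed in choroid only and because Mitf, which binds an E-box of the form CATGTG, and Otx2, which binds TAATCC, were higher there. Sequences are the 250 bases before the annotated start, from RefSeq on GRCm38.p6, written 5′ to 3′ on the strand of the gene. Capitals mark CATGTG or its reverse complement CACATG and, in Rpe65 alone, also TAATCC or its reverse complement GGATTA. Tyr lies at chr7:87493513-87493762 (minus strand), Tyrp1 at chr4:80833963-80834212 (plus), Dct at chr14:118052247-118052496 (minus) and Rpe65 at chr3:159598931-159599180 (plus).
Tyr: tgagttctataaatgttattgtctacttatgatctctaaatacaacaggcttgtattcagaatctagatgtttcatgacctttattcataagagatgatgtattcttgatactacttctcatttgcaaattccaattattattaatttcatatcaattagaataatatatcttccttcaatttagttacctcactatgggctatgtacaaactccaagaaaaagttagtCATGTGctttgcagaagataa
Tyrp1: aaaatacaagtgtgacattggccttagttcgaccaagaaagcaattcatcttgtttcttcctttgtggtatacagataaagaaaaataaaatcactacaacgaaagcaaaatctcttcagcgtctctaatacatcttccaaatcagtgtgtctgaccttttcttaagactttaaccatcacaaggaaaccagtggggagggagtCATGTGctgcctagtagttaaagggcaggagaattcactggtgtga
Dct: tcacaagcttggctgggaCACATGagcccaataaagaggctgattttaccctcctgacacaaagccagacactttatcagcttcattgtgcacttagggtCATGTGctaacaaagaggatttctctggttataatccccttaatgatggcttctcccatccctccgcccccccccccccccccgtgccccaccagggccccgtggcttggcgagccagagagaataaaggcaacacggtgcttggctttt
Rpe65: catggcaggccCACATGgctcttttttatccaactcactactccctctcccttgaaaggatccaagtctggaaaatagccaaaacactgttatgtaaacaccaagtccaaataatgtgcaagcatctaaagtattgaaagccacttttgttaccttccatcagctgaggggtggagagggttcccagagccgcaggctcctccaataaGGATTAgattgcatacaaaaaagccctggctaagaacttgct
The first base of CATGTG stood at -21 from the RefSeq start in Tyr and at -46 in Tyrp1. For both genes that start lies upstream of the gene span given with the counts. That span ends at 87493411 for Tyr and begins at 80834230 for Tyrp1, so distances from it would be longer. Dct held both orientations, at -232 and -150. Of the 12 pigment genes with a promoter in the table, 5 (41.7%) held the longer form TCATGTG on either strand, against 3.7% of 27025 genes. They were Dct, Tyr, Tyrp1, Trpm1 and Slc24a5, and of these Slc24a5 was listed in both tables and called higher (4.61 ± 0.67, and 5.68 without brain input 960). CATGTG itself, which every TCATGTG contains, was in 6 of the 12 (50%) and in 13.8% of all genes. The windows of Gpnmb, Mitf, Mlph and Rab27a did not hold CATGTG. Each of the 2 forms was also in 2 of 11 genes (18.2%) of the postsynaptic density list, described below. TCATGTG was in 0 of 8 neuron genes, 0 of 19 synaptic vesicle genes and 0 of 10 visual cycle genes. A match is a run of letters and not a shown binding site. TAATCC or its reverse complement was found in Rpe65 at -42, in 2 of 10 visual cycle genes (Rpe65 and Rgr) and in 7.2% of all genes. It was in 4 of the 12 pigment genes (33.3%), namely Dct, Mitf, Ednrb and Trpm1. Of 16 RPE identity and support genes with a promoter, 1 (6.2%) held it, Otx2. It was in 2 of 19 synaptic vesicle genes (10.5%), 1 of 11 postsynaptic genes (9.1%) and 0 of 8 neuron genes. The copy in the Dct window is left in lower case.

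**Figure D2:**
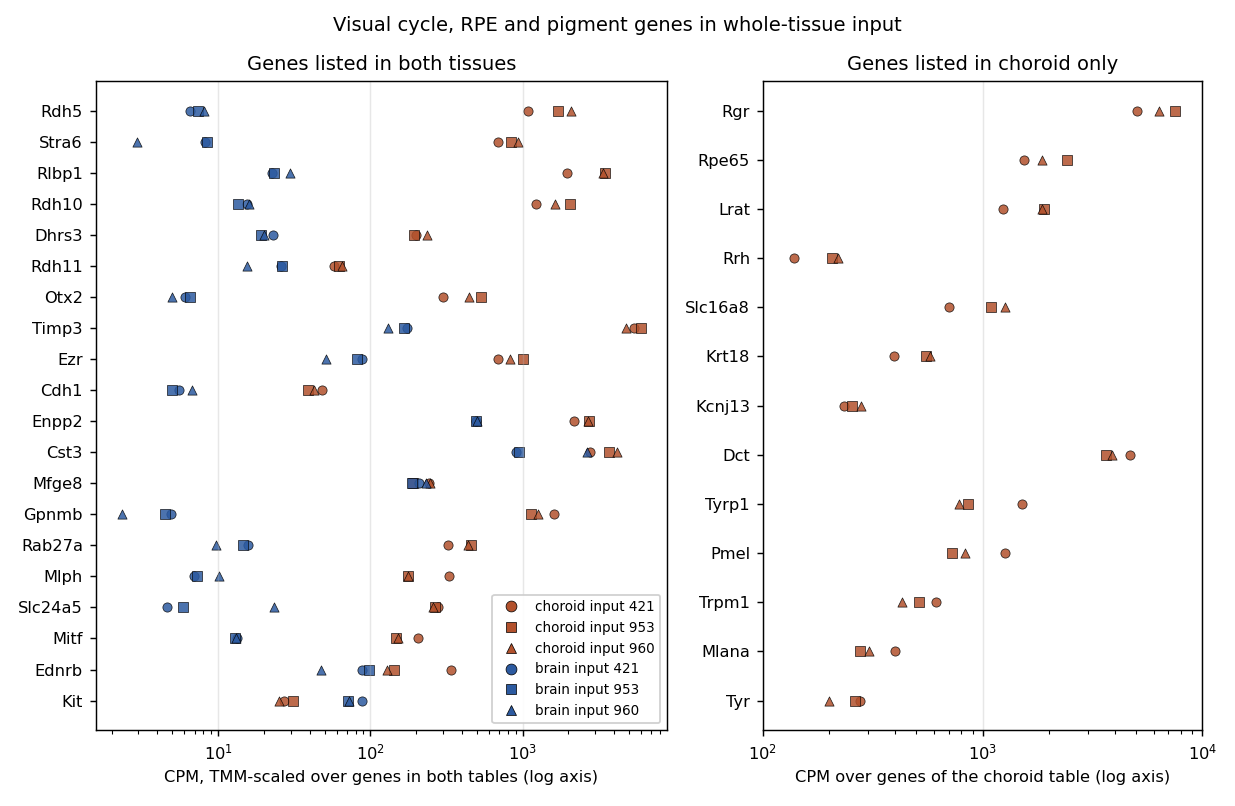
Points are single input libraries (orange choroid, blue brain; circle 421, square 953, triangle 960) on log axes of CPM. The left panel shows members listed in both tissues and the right panel members listed in choroid only, on the scale of that table. The choroid points of Rdh5, Rlbp1 and Rdh10 lie at 1080 CPM or above and their brain points at 29.6 CPM or below.

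All tested transcription factors of the eye field and eye mesenchyme were higher in choroid (12 higher and 0 lower of 12, median 2.34). Pax6, the eye master regulator, had 314, 274 and 209.9 CPM in choroid and 31.3, 33.2 and 33.6 CPM in brain (3.02 ± 0.21, adjusted p = 6.84e-05). Otx1, a relative of Otx2, was higher at 2.90 ± 0.21. The homeobox gene Rax (53.6, 93.95 and 58.9 CPM in the choroid table) was listed in choroid only, as was the photoreceptor factor Crx, which was lowest in input 421 (7.84, 48.8 and 80.9). Genes that make and sense retinoic acid were mixed (7 higher and 2 lower of 12, median 0.90), beside 24.2% higher and 22.3% lower of all genes. The synthesising dehydrogenases Aldh1a2 (2.15 ± 0.20) and Aldh1a3 (3.04 ± 0.26) and the receptor Rarg (2.29 ± 0.18) were higher. Aldh1a1, the third such dehydrogenase, had 171, 143 and 91.9 CPM in choroid and 133, 124 and 148 CPM in brain, with overlapping groups (0.00 ± 0.25, adjusted p = 0.995). The retinoid X receptors Rxrg (-1.44 ± 0.24) and Rxrb (-0.53 ± 0.15) were the members called lower. The Rxrb call was lost without any 1 of 4 of the 6 libraries (adjusted p 0.0638 to 0.0938).

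Neuronal genes made up the opposite end of the comparison. Snap25, a SNARE protein of synaptic vesicle fusion (chromosome 2, 136713450 to 136782428), had 23.6, 112 and 83.6 CPM in choroid and 2797, 2824 and 3058 CPM in brain (-5.31 ± 0.60, adjusted p = 0.000422). Its brain values lay within a narrow range, and its choroid values spread over 4.76-fold, with input 421 the lowest. Camk2a, the postsynaptic kinase of excitatory neurons, had the lowest fold change of the genes named by rule, with 4.26, 5.91 and 3.86 CPM in choroid and 2143, 1950 and 1035 CPM in brain (-8.52 ± 0.44, adjusted p = 3.4e-05). Nrgn, a calmodulin-binding protein of dendritic spines, had 7.29, 6.59 and 19.7 CPM in choroid and 1161, 1192 and 2421 CPM in brain (-7.14 ± 0.65, adjusted p = 0.000164; -7.84 without choroid input 960). All 15 tested neuron genes were called lower (-4.92 as the median, against 22.3% of all genes called lower). Among them the microtubule regulator Stmn2 (-5.23 ± 0.25), the axonal surface protein Thy1 (-3.89 ± 0.18) and the neurofilament Nefl (-4.38 ± 0.26) were lower in each choroid input than in each brain input. The RNA-binding protein Rbfox3, known as NeuN, was listed in brain only (414, 389 and 720.2 CPM in the brain table).

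Presynaptic genes followed (0 higher and 17 lower of 18, median -3.96). Cplx1, which clamps vesicle fusion, had 7.45, 8.87 and 7.50 CPM in choroid and 940.1, 987 and 752 CPM in brain (-6.82 ± 0.25, adjusted p = 2.87e-05), and the vesicle coat protein Syn2 had 4.50, 7.50 and 5.50 CPM in choroid and 537, 501 and 304 CPM in brain (-6.27 ± 0.36, adjusted p = 4.19e-05). The exception was Sv2b, a vesicle glycoprotein, with 329, 414 and 374 CPM in choroid and 335, 315 and 209 CPM in brain (0.38 ± 0.23, adjusted p = 0.223). Postsynaptic density genes were all called lower (0 higher and 15 lower of 15, median -2.95), with Camk2b (-6.09 ± 0.43), the scaffold Homer1 (-2.95 ± 0.20) and the adhesion protein Lrrtm2 (-2.10 ± 0.18). Other neuronal genes with very low choroid values were the GTPase activator Agap2 (-6.87 ± 0.38), the calcium sensor Vsnl1 (-6.63 ± 0.45), the secretory granule protein Ptprn (-6.00 ± 0.52), Ndrg4 (-5.90 ± 0.29) and the imprinted long RNA Meg3 (-6.05 ± 0.62). Meg3 was abundant in brain (3821, 4180 and 5070 CPM) and low in choroid (23.6, 111 and 62.6 CPM). Without choroid input 953, where both were highest in choroid, Meg3 had -6.66 and Ptprn -6.66.

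Syn1, the synapsin that was listed in brain only (537, 525 and 211 CPM in the brain table), is shown because its promoter is a known target of REST, the repressor of neuronal genes. The sequence is from chrX:20920919-20921168 (minus strand, GRCm38.p6, RefSeq), with TTCAGCACC, the first part of the element that REST binds, in capitals.
Syn1: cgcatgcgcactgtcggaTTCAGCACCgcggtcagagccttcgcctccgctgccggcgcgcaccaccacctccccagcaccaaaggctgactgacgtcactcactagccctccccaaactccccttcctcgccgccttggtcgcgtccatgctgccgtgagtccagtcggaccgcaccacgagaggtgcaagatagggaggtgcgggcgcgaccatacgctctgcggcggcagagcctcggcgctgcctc
The match began at -232. TTCAGCACC was found, on either strand, in 1 of 19 genes of the synaptic vesicle list with a promoter, in 1 of 11 of the postsynaptic list, in 0 of 8 of the neuron list and in 0.3% of all genes.

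**Figure D3:**
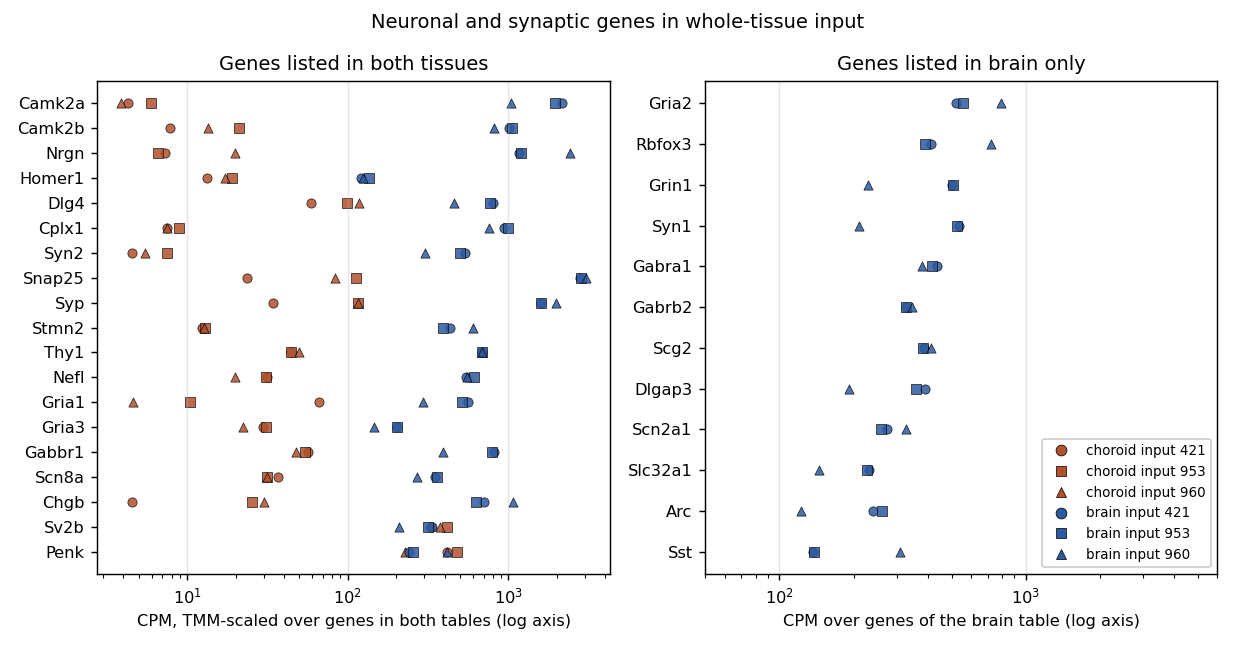
CPM of neuronal and synaptic genes by library on log axes (orange choroid, blue brain; circle 421, square 953, triangle 960), with genes listed in both tissues on the left and genes listed in brain only on the right. Choroid points of Camk2a to Chgb sit to the left of the brain points, while Sv2b and Penk overlap.

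Receptor and channel genes showed the same direction. Of the glutamate receptors, 5 of 6 tested were lower, among them the AMPA receptor subunits Gria4 (-4.48 ± 0.46) and Gria3 (-2.74 ± 0.23), the kainate subunit Grik5 (-1.94 ± 0.19) and the delta subunit Grid1 (-2.54 ± 0.49). Another 17 were listed in brain only, led by Gria2 (523, 556 and 791 CPM) and the NMDA subunit Grin1 (501, 507 and 229.6 CPM). The kainate subunit Grik1 was not called, at 12.3, 13.4 and 24.6 CPM in choroid and 19.8, 17.7 and 13.7 CPM in brain (-0.03 ± 0.31, adjusted p = 0.95). All 6 tested GABA and glycine receptor genes were lower (median -2.76), with the metabotropic Gabbr1 (-3.65 ± 0.33) and the ionotropic Gabra3 (-3.63 ± 0.28) and Glrb (-3.39 ± 0.26). Sodium and calcium channel genes were lower without exception among the 14 tested (median -2.94), and the axonal Scn8a (-3.30 ± 0.20) and the presynaptic Cacna1a (-4.29 ± 0.23) were examples.

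Neuropeptide and granule genes differed more among themselves (0 higher and 4 lower of 6, median -2.72). Chgb, a granin of dense-core vesicles, had 4.50, 25.5 and 30.1 CPM in choroid and 700.3, 632 and 1060 CPM in brain (-5.31 ± 0.73, adjusted p = 0.000982), and Npy (-3.22 ± 0.48) and Cck (-2.23 ± 0.41) were lower. For Npy and Cck the brain level was highest in input 960, and without it the values were -2.56 and -1.64. Penk, the enkephalin precursor, was not called, with 417, 476 and 227 CPM in choroid and 242, 254 and 413 CPM in brain (0.30 ± 0.34, adjusted p = 0.507). The somatostatin gene Sst (137, 138 and 310.2 CPM in the brain table) and the granin Scg2 (386, 382 and 412) were listed in brain only.

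Genes known from particular brain regions came next, to be read beside 24.2% higher and 22.3% lower of all genes. Telencephalon genes (1 higher and 4 lower of 6, median -1.66) included the striatal Adora2a (-3.24 ± 0.18) and Ppp1r1b (-2.48 ± 0.18), and 15 more were listed in brain only, led by the cortical factor Neurod2 (124, 109 and 198 CPM). The 1 member called higher was Rgs9 (263, 319.8 and 353 CPM in choroid and 92.5, 111 and 84.8 CPM in brain; 1.70 ± 0.20, adjusted p = 0.000528), a GTPase activator used by striatal neurons and, in another splice form, by photoreceptors. Cerebellar genes (0 higher and 3 lower of 5, median -1.54) included the Purkinje genes Car8 (-3.12 ± 0.26) and Itpr1 (-1.54 ± 0.27), with Calb1 (272, 204 and 319 CPM) in brain only. Hypothalamic, thalamic and midbrain genes (1 higher and 7 lower of 10, median -1.13) included Hap1 (-3.66 ± 0.30) and Baiap3 (-2.79 ± 0.30). Ddc, which makes dopamine and serotonin, was the member called higher (0.84 ± 0.25), a call lost without any 1 of 3 libraries (adjusted p 0.0864 to 0.104).

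Endothelial transcripts were more abundant in choroid input (25 higher and 1 lower of 27, median 2.36). Pecam1, the endothelial junction protein (chromosome 11, 106654218 to 106715281), had 64.5, 45.2 and 39.7 CPM in choroid and 15.3, 16.2 and 11.1 CPM in brain (1.80 ± 0.26, adjusted p = 0.0012). Kdr, the main VEGF receptor, had 163, 99.6 and 89.9 CPM in choroid and 6.09, 5.69 and 3.30 CPM in brain (4.51 ± 0.35, adjusted p = 0.000101), and Emcn, a sialomucin of capillaries and veins, had 114, 69.8 and 88.7 CPM in choroid and 5.13, 5.77 and 9.41 CPM in brain (3.77 ± 0.32, adjusted p = 0.00013). Groups did not overlap for any of these 3, and choroid input 421 was the highest for each. The sialomucin Podxl (2.91 ± 0.21) and the transcription factor Sox18 (2.39 ± 0.20) were higher as well. Of the members that differed from this, the sphingosine receptor S1pr1 was lower (74.3, 37.5 and 44.7 CPM in choroid and 197, 188 and 196 CPM in brain; -1.89 ± 0.28, adjusted p = 0.00131). Cldn5, the claudin of tight endothelium, was not called (84.7, 39.5 and 68.02 CPM in choroid and 24.4, 25.5 and 88.2 CPM in brain; 0.49 ± 0.55, adjusted p = 0.502). Brain input 960 lay above all choroid inputs, and without that library Cldn5 had 1.36, adjusted p = 0.00988. Without choroid input 421 the list's median was 2.04, with 24 members called higher.

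Fenestrated capillaries lie under the RPE, and their genes were mostly higher (6 higher and 1 lower of 9, median 1.97). The shares of all genes were 24.2% higher and 22.3% lower. Plvap, the protein of fenestral diaphragms, had 372, 229 and 302 CPM in choroid and 33.1, 31.5 and 38.8 CPM in brain (3.13 ± 0.24, adjusted p = 9.72e-05). Esm1, an endothelial proteoglycan, had 53.4, 25.5 and 19.7 CPM in choroid and 0.544, 0.686 and 0.244 CPM in brain (5.91 ± 0.54, adjusted p = 0.00017) and the binding protein Igfbp3 had 3.46 ± 0.18. Car4, a membrane carbonic anhydrase, was lower (6.79, 4.77 and 5.07 CPM in choroid and 38.9, 41.1 and 74.9 CPM in brain; -3.21 ± 0.33, adjusted p = 0.000288), and the receptor partner Ramp3 was not called (-0.49 ± 0.32, adjusted p = 0.251). The lipid phosphatase Ppap2b was not called either (-0.66 ± 0.26, adjusted p = 0.0766), but had -0.90, adjusted p = 0.0337 without choroid input 421 and -0.79, adjusted p = 0.0267 without brain input 960.

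Barrier endothelium genes were not lower as a group (13 higher and 3 lower of 25, median 0.87). Of all genes, 24.2% were higher and 22.3% lower. Slc2a1, the glucose transporter of barrier endothelium that the RPE also carries (chromosome 4, 119108745 to 119137329), had 1120, 1205 and 1172 CPM in choroid and 131, 126 and 137 CPM in brain (3.15 ± 0.18, adjusted p = 3.96e-05). Its values were close within each tissue, and the lowest choroid value was 8.17 times the highest brain value. The organic anion carriers Slco1a4 (3.25 ± 0.23) and Slc22a8 (3.39 ± 0.26) and the factor Foxf2 (2.93 ± 0.24) were higher too. Spock2 (-4.02 ± 0.39), Slc7a1 (-0.93 ± 0.20) and Lef1 (-0.86 ± 0.29) were lower, and of these Spock2 is also a proteoglycan of neurons. The Lef1 call was lost without any 1 of 5 libraries (adjusted p 0.0631 to 0.137). The transferrin receptor gene Tfrc was not called (66.96, 62.3 and 72.5 CPM in choroid and 71.1, 84.2 and 77.7 CPM in brain; -0.21 ± 0.15, adjusted p = 0.308). Whether endothelium or another cell carried these transcripts was not tested.

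Mural genes, of pericytes and smooth muscle, were higher for 6 of 9 (median 1.96), with the receptor Pdgfrb (1.96 ± 0.24), the smooth muscle protein Tagln (4.23 ± 0.33) and the peptidase Anpep (3.76 ± 0.23). Rgs5, a pericyte marker, had 139, 37.3 and 37.4 CPM in choroid and 22.4, 22.1 and 2.44 CPM in brain and was not called (2.16 ± 0.84, adjusted p = 0.0732); without choroid input 421, the highest, it had 1.21, adjusted p = 0.28. Without choroid input 421 the list's median was 1.21, with 5 members called. Smooth muscle myosin Myh11 (93.5, 50.6 and 39.4 CPM in the choroid table) and desmin Des (58.3, 61.1 and 71.7) were listed in choroid only.

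Stromal genes were higher in choroid across several lists. Fibroblast genes were higher for 14 of 15 (median 3.63). Dcn, the collagen-binding proteoglycan decorin, had 1216, 936 and 966 CPM in choroid and 29.5, 25.4 and 43.1 CPM in brain (5.00 ± 0.30, adjusted p = 4.46e-05), and Ogn, a relative of it, had 3.92 ± 0.23. Pdgfra, which oligodendrocyte precursors share with fibroblasts, was the member not called (76.4, 36.04 and 46.2 CPM in choroid and 69.8, 58.5 and 43.7 CPM in brain; -0.12 ± 0.31, adjusted p = 0.784). Collagen chains were higher for 19 of 22 (median 2.59). Col8a1 and Col8a2, the 2 chains of the network collagen of Bruch's membrane and other basement layers, were highest. Col8a2 had 1249, 1546 and 1423 CPM in choroid and 12.7, 9.12 and 6.60 CPM in brain (7.20 ± 0.34, adjusted p = 2.87e-05), and Col8a1 had 860.2, 1213 and 1097 CPM in choroid and 6.43, 6.86 and 10.9 CPM in brain (7.05 ± 0.34, adjusted p = 2.87e-05). The fibrillar Col1a2 (3.63 ± 0.23) and the cartilage and eye collagen Col9a3 (4.72 ± 0.30) were higher, and Col3a1 (168, 119.5 and 102 CPM in the choroid table) and Col4a3 (122, 128 and 102) were listed in choroid only. Col6a1 was not called (1.09 ± 0.46, adjusted p = 0.091), and had 1.54, adjusted p = 0.0362 without brain input 953. Col9a2 was not called (0.95 ± 0.48, adjusted p = 0.143), and had 1.34, adjusted p = 0.0163 without choroid input 960.

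Elastic fibre genes were higher for 12 of 14 (median 2.72), including elastin itself, Eln, with 53.9, 52.6 and 48.4 CPM in choroid and 7.68, 7.74 and 5.86 CPM in brain (2.85 ± 0.19, adjusted p = 6.3e-05). The fibulins Fbln5 (3.67 ± 0.22) and Efemp1 (3.38 ± 0.26) and the TGF-beta binding Ltbp1 (3.92 ± 0.31) were higher, and the crosslinking enzyme Loxl1 (173, 154 and 155 CPM) was listed in choroid only. Basement membrane genes were higher for 10 of 11 (median 2.55). They included the nidogen Nid2 (5.72 ± 0.42), the perlecan gene Hspg2 (4.07 ± 0.35) and the laminins Lamb1 (2.55 ± 0.17) and Lamb2 (2.87 ± 0.21). Agrn, a proteoglycan also made by neurons, was not called (-0.56 ± 0.36, adjusted p = 0.244), and had -0.86, adjusted p = 0.0113 without brain input 960. The matricellular protein Thbs1, an inhibitor of vessel growth, had 560, 559.5 and 476 CPM in choroid and 5.47, 4.24 and 4.52 CPM in brain (6.80 ± 0.24, adjusted p = 2.87e-05). Emp1 (7.34 ± 0.48) and Fam129a (7.08 ± 0.56) were also among the 10 highest fold changes.

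Secreted Wnt inhibitors were higher for 5 of 6 (median 3.34). Sfrp1, which binds Wnt ligands, had 302, 306 and 239 CPM in choroid and 16.8, 17.4 and 7.70 CPM in brain (4.32 ± 0.36, adjusted p = 0.000121). Sostdc1 (4.15 ± 0.25), Sfrp5 (2.44 ± 0.21) and Dkk3 (2.52 ± 0.32) were higher, and Frzb was lower (-1.34 ± 0.18).

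Among immune genes, those of macrophages and of MHC class II were called higher for every tested member (15 higher and 0 lower of 15, median 3.30). The scavenger receptor Cd163 (2.92, 3.80 and 1.88 CPM in the brain table) and the folate receptor Folr2 (0.726, 0.489 and 0.625) were listed in brain only, at low levels. Lyz2, the myeloid lysozyme, had 1712, 1165 and 1974 CPM in choroid and 24.0, 17.3 and 41.3 CPM in brain (5.88 ± 0.44, adjusted p = 9.08e-05). Cd74, the invariant chain of MHC class II, had 311, 282 and 545 CPM in choroid and 17.7, 9.88 and 20.9 CPM in brain (4.56 ± 0.42, adjusted p = 0.000174), and the scavenger receptor Mrc1 had 2.59 ± 0.20. Microglia genes, many of which other macrophages carry, were 3 higher and 0 lower of 8, median 0.38, with 24.2% of all genes higher. Without brain input 960, 5 were higher and the median was 0.81. Cx3cr1, the fractalkine receptor, had 48.2, 18.8 and 44.6 CPM in choroid and 60.2, 60.05 and 102 CPM in brain, so each choroid value lay below each brain value, and it was not called (-0.98 ± 0.39, adjusted p = 0.0776). Trem2 (1.64 ± 0.40) and its adaptor Tyrobp (2.12 ± 0.45) were higher. P2ry12 (24.3, 21.5 and 31.2 CPM in the brain table) and Sall1 (40.1, 47.8 and 22.2), which mark microglia among macrophages, were listed in brain only. The mast cell proteases Tpsb2 (17.6, 18.5 and 17.1 CPM in the choroid table), Mcpt4 (9.81, 18.7 and 12.7) and Cma1 (8.32, 18.3 and 12.8) were listed in choroid only, at low levels.

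MHC class I and its loading machinery was higher for 13 of 14 (median 2.35), with H2-K1 (429, 312 and 422 CPM in choroid and 51.04, 39.8 and 73.3 CPM in brain; 2.83 ± 0.29, adjusted p = 0.000264), H2-D1 (2.54 ± 0.27) and the loading chaperone Tapbp (2.02 ± 0.18). The H2 genes are close paralogs whose reads can be split between copies, so single values are uncertain. Complement genes were higher for 14 of 17 (median 2.49). The C1 inhibitor Serping1 had 225, 167 and 162 CPM in choroid and 12.5, 10.3 and 8.06 CPM in brain (4.15 ± 0.25, adjusted p = 4.8e-05). The classical pathway proteases C2 (4.31 ± 0.28) and C1ra (4.77 ± 0.41) were higher. C1qa was not called (206, 119 and 250.4 CPM in choroid and 73.9, 66.9 and 158 CPM in brain; 0.95 ± 0.41, adjusted p = 0.102), and without brain input 960 it had 1.45, adjusted p = 0.00753.

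Fuel handling differed by isoform. Glucose and monocarboxylate transporter genes were 8 higher and 2 lower of 12, median 1.62, beside 24.2% higher and 22.3% lower of all genes. Beside Slc2a1, the lactate carrier Slc16a1 had 603, 952 and 933 CPM in choroid and 47.2, 48.2 and 77.9 CPM in brain (3.85 ± 0.32, adjusted p = 0.000123) and Slc16a9 had 261, 375 and 326 CPM in choroid and 7.38, 4.56 and 3.79 CPM in brain (5.91 ± 0.34, adjusted p = 4.26e-05). Slc2a3, the glucose transporter of neurons, was lower with 11.5, 7.39 and 8.43 CPM in choroid and 177, 173 and 97.4 CPM in brain (-4.03 ± 0.32, adjusted p = 0.000104). Slc2a1 and Slc2a3 thus had opposite signs, with no overlap between tissues for either. Slc2a8, an intracellular glucose transporter, was not called (-0.12 ± 0.18, adjusted p = 0.63).

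Glycolytic enzymes were 1 higher and 7 lower of 17, median -0.56, beside 22.3% of all genes lower. Without choroid input 953, 4 were lower, and without brain input 960 or with DESeq2 10 were. Enolase Eno2, of neurons, had 52.7, 75.9 and 77.1 CPM in choroid and 1047, 1045 and 868 CPM in brain (-3.85 ± 0.24, adjusted p = 5.09e-05), and Aldoc, the aldolase of astrocytes and Purkinje cells, had 394, 447 and 395 CPM in choroid and 1341, 1276 and 1337 CPM in brain (-1.68 ± 0.17, adjusted p = 0.000282). The phosphofructokinase Pfkm was lower (-2.13 ± 0.20), and Hk2 was the member called higher (27.2, 47.7 and 61.7 CPM in choroid and 9.93, 7.82 and 11.5 CPM in brain; 2.23 ± 0.34, adjusted p = 0.00149). Aldoa, the main aldolase, was not called (1516, 1811 and 1913 CPM in choroid and 1738, 1728 and 2008 CPM in brain; -0.06 ± 0.19, adjusted p = 0.811), nor was Ldhb (-0.56 ± 0.26, adjusted p = 0.121).

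**Figure D4:**
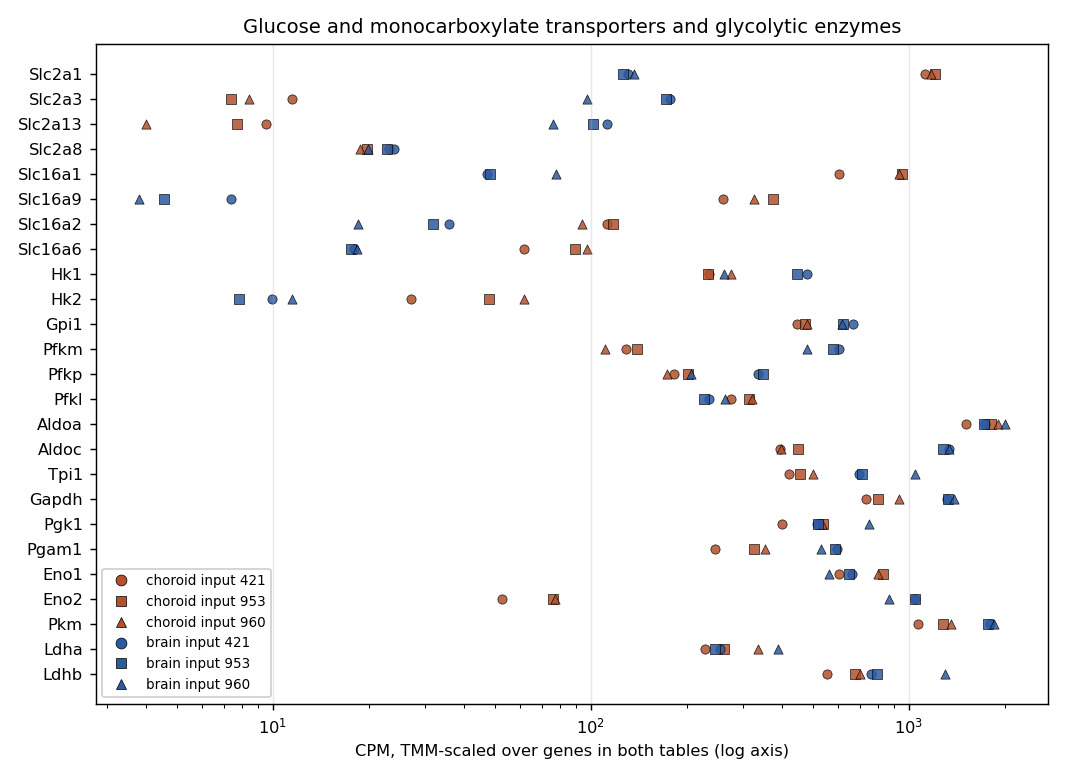
CPM of transporter and glycolysis genes by library on a log axis (orange choroid, blue brain; circle 421, square 953, triangle 960). Slc2a1 and Slc16a1 have choroid points to the right and Slc2a3, Eno2 and Aldoc have brain points to the right, while the points of Aldoa mix.

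Lysosomal genes were higher for 18 of 26 (median 1.43), and Mcoln1, a lysosomal ion channel, was lower (-0.55 ± 0.15). The Mcoln1 call was lost without any 1 of 5 libraries (adjusted p 0.0558 to 0.105). Lamp2, a major lysosomal membrane protein, had 464, 439 and 428 CPM in choroid and 89.3, 88.3 and 90.6 CPM in brain (2.31 ± 0.16, adjusted p = 7.06e-05). The cholesterol carrier Npc2 (2.70 ± 0.24) and the cathepsins Ctsh (2.97 ± 0.22) and Ctsc (4.00 ± 0.26) were higher, and the membrane protein Lamp1 was not called (0.53 ± 0.21, adjusted p = 0.0727). The motif CACGTG, the E-box that TFEB-family factors bind in lysosomal promoters and its own reverse complement, was in 10 of 21 members with a promoter in the RefSeq table (47.6%), against 6.9% of all genes. Of the 10 with the motif 5 were called higher, 1 lower and 4 not called, and the 10 tested members without it were called higher.

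Transcripts of cell types other than choroid and RPE were present in the choroid inputs and differed between them. Rods, whose outer segments touch the RPE, gave 20 members listed in choroid only. The rod transducin Gnat1 (chromosome 9, 107674474 to 107679592) had 73.4, 382 and 909 CPM in the choroid table, lowest in input 421 and highest in input 960. The list's summed CPM over each tissue's own table, with 24 members in choroid and 4 in brain, was 2365, 5357 and 9177 in choroid and 725, 715 and 506 in brain, where Gnb1, a G protein subunit that many cells use, made up most of it. Abca4 (423, 464 and 473 CPM), which is in rods and the RPE, did not follow this spread, and was higher than in brain (6.18 ± 0.22, adjusted p = 2.87e-05). Of 4 tested members 3 were called higher. What the rod RNA adds to other choroid values was not tested.

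Mbp and Gfap were high in choroid input 421. Mbp, the myelin basic protein, had 3273, 106 and 169.9 CPM in choroid and 2427, 2666 and 2450 CPM in brain, and was not called (-1.09 ± 1.17, adjusted p = 0.482). Without choroid input 421 it was lower at -4.19, adjusted p = 0.000447. Gfap, the astrocyte filament, had 1038, 68.1 and 59.9 CPM in choroid and 364, 356 and 235 CPM in brain (0.29 ± 1.04, adjusted p = 0.844), and without choroid input 421 -2.32, adjusted p = 0.00214. In both genes choroid input 421 was above every brain input, and inputs 953 and 960 were below every brain input. The oligodendrocyte list's summed CPM was 7137, 1132 and 1367 in choroid over 8 listed members and 6041, 6539 and 5772 in brain over 17. It was 2 higher and 0 lower of 8, median -0.83, beside 24.2% higher and 22.3% lower of all genes. Without choroid input 421, 2 were higher and 5 lower. A further 9 members, led by Mag (299, 347 and 249 CPM), were listed in brain only. The 2 members called higher, Ermn (504, 595 and 554 CPM in choroid and 119, 138 and 162 CPM in brain; 1.98 ± 0.20, adjusted p = 0.000241) and Sox10 (1.36 ± 0.25), a factor that melanocytes also use, did not follow input 421.

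Astrocyte and Müller glia genes were 5 higher and 6 lower of 17, median -0.32, beside 24.2% higher and 22.3% lower of all genes. Without choroid input 421, 8 were lower and the median was -0.97. The list's summed CPM was 10030, 9013 and 6209 in choroid over 17 members and 9382, 9255 and 9135 in brain over 18. The glutamate transporter Slc1a2 had 61.8, 28.4 and 29.5 CPM in choroid and 2138, 2014 and 1213 CPM in brain (-5.48 ± 0.45, adjusted p = 0.000121), and Ndrg2 (-1.81 ± 0.23) and Fgfr3 (-1.85 ± 0.24) were lower. The intermediate filament Vim, which fibroblasts and endothelium also carry, was higher (1020, 613 and 568 CPM in choroid and 70.04, 63.8 and 83.4 CPM in brain; 3.34 ± 0.30, adjusted p = 0.000154). Glul, the glutamine synthetase, was at 2380, 3149 and 2381 CPM in choroid and 2161, 2174 and 1975 CPM in brain (0.33 ± 0.20, adjusted p = 0.222). Oligodendrocyte precursor genes were 1 higher and 2 lower of 6, median 0.33, beside the same shares of all genes. Among them the neural proteoglycan Bcan was lower (-2.95 ± 0.19).

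Skeletal muscle genes were higher for 4 of 5 (median 4.10), with Tnni2, a fast troponin, at 32.2, 64.6 and 58.7 CPM in choroid and 0.068, 0.444 and 0.611 CPM in brain (7.35 ± 0.64, adjusted p = 0.000146; 6.67 without brain input 421). Ckm, the muscle creatine kinase, was listed in choroid only (54.6, 118 and 93.3 CPM). Summed over the members in each tissue's own table, 15 in choroid and 5 in brain, the list stood at 641, 1188 and 855 CPM in choroid against 16.4, 18.1 and 24.6 in brain. Corneal and skin epithelium, with 10 members in the choroid table and 4 in the brain table, gave 708, 514 and 1222 against 27.8, 31.1 and 32.5 CPM, with the keratin Krt15 at 128, 77.3 and 410 CPM. Krt12, the corneal keratin, was called (124, 36.8 and 30.9 CPM in choroid and 15.9, 17.9 and 23.7 CPM in brain; 1.74 ± 0.54, adjusted p = 0.0347), but not without brain input 421 (1.63, adjusted p = 0.0875) or brain input 953 (1.71, adjusted p = 0.0813). Without choroid input 421, where it was highest, Krt12 had 0.83. The lens crystallin Cryaa was at 8.40, 11.2 and 179 CPM, high in choroid input 960 alone. These lists name tissues other than choroid and RPE, and their part in other differences was not tested.

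Of the genes named for the brain's choroid plexus and ependyma, all 4 tested were higher in the eye sample, while 4 were listed in choroid only and 4 in brain only. Ttr, the thyroid hormone carrier of choroid plexus and RPE (chromosome 18, 20665250 to 20674326), had 4649, 7779 and 7040 CPM in choroid and 622, 613 and 1450 CPM in brain (2.86 ± 0.43, adjusted p = 0.00145), and was the gene with the highest level per kilobase in choroid, at 5424 CPM per kilobase. In brain it held rank 17 of 12421 at 669 CPM per kilobase. Clic6 (5.20 ± 0.29), the water channel Aqp1 (5.14 ± 0.30) and Rarres2 (3.47 ± 0.34) were higher, and Folr1 (128, 140.5 and 131 CPM) and Slc4a5 (864, 843 and 746 CPM) were listed in choroid only. Those listed in brain only were Kl (25.6, 27.1 and 19.8 CPM in the brain table), the prolactin receptor Prlr (16.1, 17.6 and 19.8), Foxj1, a factor for motile cilia (18.3, 16.96 and 15.6), and Rsph1, a radial spoke protein of cilia (5.44, 7.01 and 5.50). Smaller lists gave 3 of 5 Schwann cell genes higher (median 1.53), with the myelin protein Pmp22 at 2.43 ± 0.18, and 4 of 8 genes of sclera and cartilage higher (median 1.28), with the chondrogenic factor Sox9 at 1.69 ± 0.27. The cone genes Gnat2 (24.1, 28.4 and 30.3 CPM) and Gnb3 (5.90, 32.1 and 30.7 CPM) were listed in choroid only.

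Globin genes ran with the replicate number in both tissues. Beta-s, the beta globin, had 149.6, 467 and 1156 CPM in choroid and 135, 286 and 1035 CPM in brain, and was not called (0.28 ± 0.90, adjusted p = 0.82). Hba-a1, an alpha globin whose near copy can share its reads, had 197, 558 and 1330 CPM in choroid and 169.8, 327 and 958 CPM in brain (0.52 ± 0.81, adjusted p = 0.632). In both tissues input 421 was lowest and input 960 highest. Without choroid input 960 Beta-s had -0.65, adjusted p = 0.625 and Hba-a1 -0.36, adjusted p = 0.76, and the erythroid median went from 0.37 to -0.65.

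**Figure D5:**
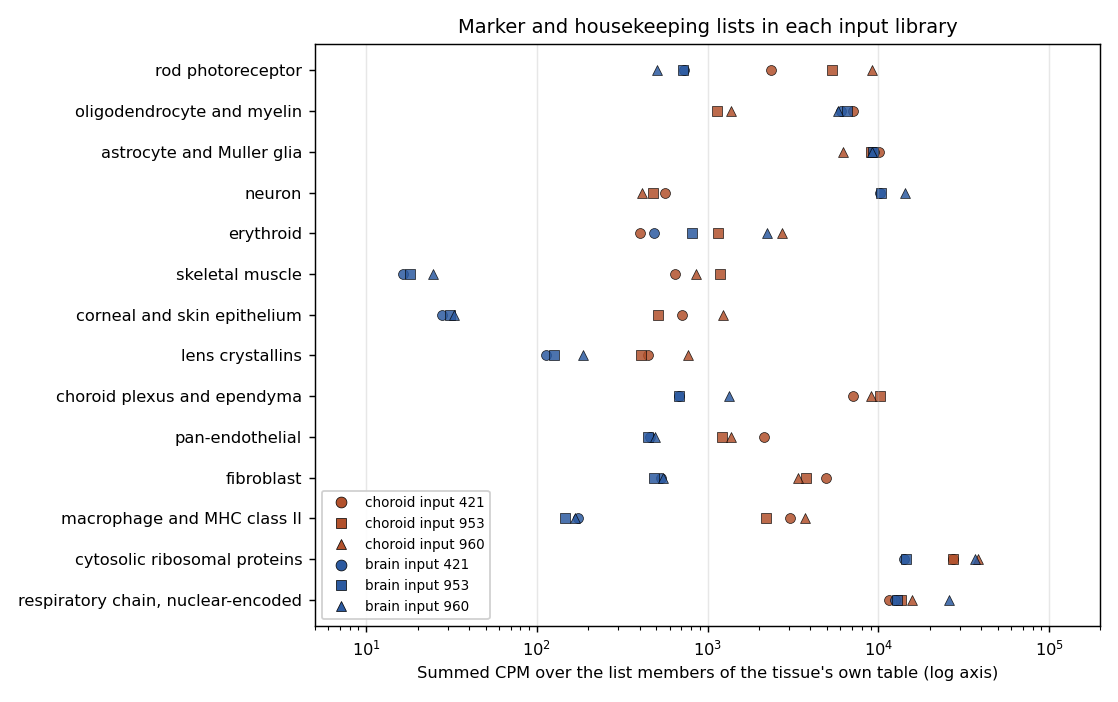
Summed CPM of list members over each tissue's own table, which can list different members, by library, on a log axis (orange choroid, blue brain; circle 421, square 953, triangle 960). Choroid input 421 lies with the brain points for the oligodendrocyte list, rods run from 2365 to 9177 CPM in choroid, and brain input 960 lies with the choroid points for ribosomal proteins.

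Ribosomal protein genes showed how far 1 library moved a list. Their summed CPM over the tissue's table was 27210, 27290 and 38550 in choroid and 14070, 14510 and 37060 in brain, with brain input 960 far above the other brain inputs. With all libraries 3 of 75 were called higher and 0 lower (median 0.38), against 24.2% and 22.3% of all genes. Without brain input 960, 70 of 75 were higher and the median was 1.02. Rpl13a, for example, had 863, 910 and 1294 CPM in choroid and 469, 498 and 1244 CPM in brain (0.47 ± 0.42, adjusted p = 0.39), and without brain input 960 1.08, adjusted p = 0.00535. Brain input 960 exceeded both other brain inputs for all 75 genes and every choroid input for 45. Many of these genes have processed pseudogenes that can take reads. Whether the state of the RNA or the tissue gave the difference in brain input 960 was not tested.

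Nuclear genes of the respiratory chain behaved alike in that library. Their sums were 11510, 13660 and 15640 CPM in choroid and 12470, 12860 and 25780 in brain. With all libraries 1 was higher and 9 lower of 79 (median -0.47), beside 24.2% higher and 22.3% lower of all genes. Without brain input 960 there were 16 higher and 12 lower (median 0.12), so the direction of the median changed. The complex I gene Ndufa9 had 86.5, 90.3 and 93.95 CPM in choroid and 155, 158 and 214 CPM in brain (-0.96 ± 0.19, adjusted p = 0.00492) and the complex III gene Uqcrc1 had 191, 190.4 and 209.8 CPM in choroid and 341, 339.9 and 532 CPM in brain (-1.04 ± 0.23, adjusted p = 0.00876). Both were below every brain input in each choroid input. Cox6b2, a tissue-restricted complex IV subunit, was the member called higher (35.3, 40.6 and 51.1 CPM in choroid and 3.20, 3.47 and 6.11 CPM in brain; 3.36 ± 0.32, adjusted p = 0.000196).

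Immediate early genes were 5 higher and 5 lower of 17, median 0.18, near the 24.2% and 22.3% of all genes. Egr1, an activity-induced factor of neurons, had 25.9, 23.99 and 24.9 CPM in choroid and 314, 348 and 335 CPM in brain (-3.74 ± 0.17, adjusted p = 2.87e-05), and Fos (-2.77 ± 0.22) was lower, with Arc (240.5, 261 and 123 CPM) listed in brain only. The vascular and epithelial factor Klf4 had 91.8, 65.2 and 109 CPM in choroid and 9.72, 7.82 and 11.97 CPM in brain (3.19 ± 0.27, adjusted p = 0.000136), and Zfp36, which degrades cytokine mRNA, had 2.82 ± 0.24. Jun (0.18 ± 0.20, adjusted p = 0.492) and Jund (-0.12 ± 0.25, adjusted p = 0.72) were not called. Of the clock genes, beside the same shares of all genes, 2 were higher and 2 lower of 16 (median -0.08, or 0.02 by library size alone). The output factor Dbp was higher (253, 322 and 369.7 CPM in choroid and 92.1, 79.2 and 107 CPM in brain, 1.77 ± 0.22, adjusted p = 0.000631), and Npas2 (-2.16 ± 0.19) and Cry2 (-1.21 ± 0.19) were lower. No source used here states the time of collection.

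Tight junction genes were 5 higher and 1 lower of 13, median 0.66, beside 24.2% higher and 22.3% lower of all genes. Cgnl1, a junction adaptor, had 264, 211 and 120.5 CPM in choroid and 29.6, 30.97 and 15.6 CPM in brain (2.96 ± 0.39, adjusted p = 0.000817), and Cgn (2.77 ± 0.35) and F11r (2.45 ± 0.23) were higher. Cldn1 (243, 350.5 and 306 CPM), Cldn2 (102, 130.5 and 80.95 CPM) and Cldn19 (30.4, 31.96 and 15.8 CPM), claudins of epithelia, were listed in choroid only. Claudin Cldn10 was the member called lower (-1.76 ± 0.26), and the scaffold Tjp1 was not called (109, 88.8 and 69.5 CPM in choroid and 79.8, 82.9 and 28.1 CPM in brain; 0.48 ± 0.41, adjusted p = 0.37).

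Among all genes listed in 1 table only, 72 in choroid and 167 in brain averaged at least 100 CPM in the inputs of their table. Those with the highest values in choroid included Rgr, Dct, Rpe65, Lrat, Tyrp1, Slc16a8 and Pmel, which are genes of the visual cycle, pigment and RPE. In brain the 8 highest were the dendritic Ddn (1017, 961 and 490.5 CPM), Gria2, Sult4a1 (488, 506 and 803), Hpcal4 (678, 660.3 and 397), the vesicle GTPase Rab3c (510.4, 462 and 633), the GABA-making enzyme Gad1 (567, 558 and 411), Rbfox3 and the calcium sensor Hpca (584, 588 and 315). Brain input 960 was the highest of the brain inputs for 4 of these 8 (Gria2, Sult4a1, Rab3c and Rbfox3) and the lowest for the other 4.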

How the data were processed

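Libraries were made with a strand-specific kit, per the labels' protocols. The authors deposited 1 table per tissue of expected counts, mostly not whole numbers. The file headers give the rule for a row, 50 counts or more in every input or every pull-down library of the tissue. The submitters' processing notes name DESeq and mm10, and no source used here gives the aligner or counter. The other 30 columns of values (pull-down libraries, retina and the authors' normalized values) were not used. Input counts were joined on gene ID, rounded and tested in R 4.3.3 with edgeR 4.0.16 (quasi-likelihood test after TMM, filterByExpr, which removed 0 genes). Benjamini-Hochberg adjustment ran over 11121 genes. Standard errors are on the log2 scale, with 3 libraries a group. Each is the size of the fold change divided by the square root of the edgeR F statistic. Genes of 1 table use CPM over that table. Exonic lengths came from GENCODE vM21. On simulated data the test recovered 12 of 100 genes changed 2-fold and 90 of 100 changed 4-fold. It called 2 of 10921 unchanged genes. Far fewer genes differed in the simulation than the 46.5% called in the data, and the adjusted p depends on that share. The recovered numbers are therefore not the share of such genes found in this comparison. Alternatives were library size scaling, DESeq2 1.42.0, 2 other filters, a replicate block and libraries left out. Text genes are the 10 most extreme each way, up to 6 of each list, the highest of 1 table only and 12 markers. Rbp4, Slc24a5, Trpm1, Rxrg, Rxrb, Ddc, S1pr1, Car4, Spock2, Slc7a1, Lef1, Frzb, Mcoln1, Cldn10, Ednrb, Kl, Prlr, Foxj1, Rsph1, Cd163 and Folr2 were named after their values were seen. Some genes that this rule names are not reported here. Members and lists were chosen with earlier results of these data known.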

Additional observations from a re-analysis of the deposited data

How the results depend on the processing

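The counts of genes called higher and lower, 2691 and 2485, were 2927 and 2156 by library size alone, 2441 and 2326 among genes averaging 10 CPM or more, and 2909 and 2891 with DESeq2. Leaving out 1 library gave 2219 to 3532 higher and 1830 to 3359 lower. Without choroid input 421 and brain input 960 together, 3914 genes were called lower. Under a replicate block the counts were 3026 and 2855. Libraries with the same number correlated in their deviations at 0.45 (421), 0.085 (953) and 0.569 (960), the highest value for each choroid input. Brain input 953 correlated best with choroid input 421 (0.409). Brain inputs 421 and 953 were nearly alike (r of 0.995), so these values cannot decide whether the numbers pair samples. The main fit did not treat them as pairs. Of 153 called genes named above, 147 kept their call under every alternative; Ddc, Ednrb, Krt12, Lef1, Mcoln1 and Rxrb did not, and the cause was not tested. Genes that changed sign were all uncalled with the 6 libraries. Gfap had -1.08 under the replicate block, -2.51 without both libraries and between -2.32 and 0.80 with 1 library left out. Aldh1a1 had -0.04 under the replicate block, -0.01 with DESeq2, -0.15 without both libraries and between -0.20 and 0.22 with 1 library left out. Aldoa had 0.05 by library size, 0.09 without both libraries and between -0.13 and 0.03 with 1 library left out. Grik1 had 0.07 by library size, 0.02 with a mean of at least 10 CPM, 0.02 without both libraries and between -0.42 and 0.15 with 1 library left out. Jund had 0.00 by library size, 0.17 without both libraries and between -0.25 and 0.15 with 1 library left out. Tjp1 had -0.06 without both libraries. With 1 library left out, Beta-s ranged from -0.65 to 1.49, Hba-a1 from -0.36 to 1.49 and Pdgfra from -0.49 to 0.09. With 4 residual degrees of freedom, small differences stay uncalled, and an uncalled gene is not shown to be equal. A gene listed in 1 table only was not tested.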
